A study of Homo sapiens and Homo sapiens
Mus with 12 samples.

Results

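The 10 histone lysine demethylases KDM2A, KDM2B, KDM3A, KDM3B, KDM4A, KDM4B, KDM4C, KDM5A, KDM5B and KDM6B were followed in UM-UC-3 cells and in tumors grown from them. The members are JmjC histone demethylases listed by symbol in both human count tables, chosen with earlier results of these data known. They are not the whole class. Others, such as KDM5C, KDM6A and KDM7A, were taken with the other JmjC genes below. All 10 members were found among 21466 genes of the cultured-cell table and 26813 human genes of the tumor table. UM-UC-3 is a line from an advanced human bladder cancer. The cells carried a control hairpin RNA (shCtrl) or 1 of 2 hairpins against CDH11, a cell-cell adhesion molecule of the cadherin family. The hairpins sh#1 and sh#2 together are called CDH11 KD. Cultured cells were harvested after 24 h of preculture, in 3 libraries per group. Tumors were taken 4 weeks after cells were placed under the skin of nude mice that were 5 weeks old, in 5 tumors per group. These mice lack T cells but keep their other host cells, so that tumor RNA holds mouse RNA too, which was counted in a table of its own. Each hairpin stands for 1 cell line made with it, and nothing in the labels says that the cultured libraries came from separate cultures, so p-values there measure only the spread between these libraries.

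JmjC demethylases remove methyl groups from lysines of histone tails with the help of ferrous iron, molecular oxygen and 2-oxoglutarate, an intermediate of the citric acid cycle, and release succinate, carbon dioxide and formaldehyde. They therefore link chromatin to oxygen and to mitochondrial metabolism, and succinate and fumarate inhibit them. KDM3A and KDM3B act on mono- and dimethylated H3K9 and the KDM4 proteins on trimethylated H3K9 and H3K36, marks of silent chromatin and of transcribed gene bodies. KDM5A and KDM5B act on trimethylated H3K4 at promoters, KDM2A and KDM2B mainly on dimethylated H3K36, and KDM6B on trimethylated H3K27, the mark set by Polycomb. KDM3A, KDM4B and KDM4C are known targets of the hypoxia-inducible factors (HIF).

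Depth on human genes ranged from 2273182 to 2777019 counts in the cultured libraries and from 414849 to 1248977 in the tumors. CDH11 itself was near the limit of detection in culture, where shCtrl libraries held 2, 4 and 4 counts, those of sh#1 0, 0 and 1, and those of sh#2 1, 2 and 0. Tumors held 5 to 32 CDH11 counts (shCtrl), 1 to 9 (sh#1) and 2 to 14 (sh#2). Mouse genes took 10.4% to 14.4% of the counts of both species in shCtrl tumors, 10.4% to 30.0% in sh#1 and 13.0% to 18.8% in sh#2. Tumor 1 of sh#1 stood apart, with the highest mouse share and the lowest human total. The barcode list deposited with the tumor counts assigns every group a sequencing mix of its own, so mix and group cannot be told apart. Of the epithelial markers, KRT8 and KRT18 were present at 119.7 ± 13.7 and 130.5 ± 7.77 (SD, n = 3) normalized CPM, the counts scaled to a common library size, in cultured shCtrl cells beside VIM at 2237 ± 87.6, whereas EPCAM, CDH1, UPK1B and UPK3A had 0 counts in every cultured library. The other listed markers were low, with 5 to 14 counts per cultured library for KRT7, 2 to 6 for GATA3 and 1 to 8 for PPARG. KRT19 had 0 to 3, UPK2 0 to 1 and UPK1A 0 to 20. UPK1A averaged 0.77 normalized CPM in shCtrl, 0.99 in sh#1 and 8.74 in sh#2. In bulk samples, fewer cells of a type and less RNA per cell cannot be told apart.

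Promoters are shown for KDM3A and KDM4C, the members that moved most, and for KDM3B, the close relative of KDM3A. They are RefSeq windows of GRCh38.p14, from 250 bases before to 50 bases after an annotated start, printed 5′ to 3′ on the strand of the gene. Capitals mark ACGTG and GCGTG, the core letters of a HIF response element, on either strand. Matches that overlap, as ACGTG does with its own reverse complement in the E-box CACGTG, run together.
KDM3A, chr2:86441121-86441420, plus strand: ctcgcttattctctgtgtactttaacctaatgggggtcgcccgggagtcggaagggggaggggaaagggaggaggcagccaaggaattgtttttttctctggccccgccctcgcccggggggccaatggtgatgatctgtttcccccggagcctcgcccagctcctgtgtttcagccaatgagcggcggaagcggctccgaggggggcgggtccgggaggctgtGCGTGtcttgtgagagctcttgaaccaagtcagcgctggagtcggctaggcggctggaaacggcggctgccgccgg
KDM4C, chr9:6757723-6758022, plus strand: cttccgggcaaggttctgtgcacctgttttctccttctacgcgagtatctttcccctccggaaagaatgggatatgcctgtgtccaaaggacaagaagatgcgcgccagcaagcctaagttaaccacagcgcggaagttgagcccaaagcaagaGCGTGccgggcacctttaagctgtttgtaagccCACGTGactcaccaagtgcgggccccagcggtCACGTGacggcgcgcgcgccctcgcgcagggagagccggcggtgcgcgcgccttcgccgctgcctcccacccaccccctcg
KDM3B, chr5:138352435-138352734, plus strand: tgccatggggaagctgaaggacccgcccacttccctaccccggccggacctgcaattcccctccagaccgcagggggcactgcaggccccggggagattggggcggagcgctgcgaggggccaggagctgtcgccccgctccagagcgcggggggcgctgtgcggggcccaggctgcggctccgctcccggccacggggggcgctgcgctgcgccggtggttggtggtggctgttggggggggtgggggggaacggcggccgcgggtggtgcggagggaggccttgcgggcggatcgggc
The KDM3A window held 1 GCGTG and 0 ACGTG. The KDM4C window held 1 GCGTG and 4 ACGTG, all 4 of them in its 2 copies of CACGTG, a letter run that other factors also bind. The KDM3B window held 0 matches of either core. KDM3A has another, overlapping window, with 1 GCGTG. The KDM4B window held 2 ACGTG, both in its 1 CACGTG, and 2 GCGTG. The windows of KDM4A, KDM5A and KDM5B and 1 window of KDM6B held 1 GCGTG each. In KDM2A 1 window held 3 GCGTG, and another window of KDM2A and of KDM6B held 0 matches. Of the KDM2B windows, 1 held 1 ACGTG and the others only GCGTG. KDM2A, KDM2B, KDM4A, KDM4B and KDM5A were not called in any cultured comparison, whereas KDM5B and KDM6B were called higher in CDH11 KD. A relation between matches and changes was not tested. Of all 35116 promoter windows in the table, 21.4% held ACGTG, 36.5% GCGTG, 7.26% CACGTG and 48.4% at least 1 of the first 2. All 10 members were found by symbol among these windows, with 16 windows in all, of which 3 held ACGTG and 13 held either core. A match describes the letters of the window and is not a mapped binding site.

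In cultured cells, 3 of the 10 demethylases were higher in CDH11 KD than in shCtrl and 0 were lower (q, the Benjamini-Hochberg adjusted p of edgeR over 9859 genes, under 0.05, with all members tested). Of all genes tested, 9.12% were called higher and 8.32% lower. The 3 were KDM3A, KDM6B and KDM5B. The median log2 fold change of the 10 members was 0.15, against 0.00 over all genes tested. With sh#1 alone 2 members were higher and 0 lower, where 11.8% of genes were called higher and 10.6% lower. With sh#2 alone 4 were higher and 1 lower, where 19.5% and 18.8% were. Without shCtrl replicate 1, or without shCtrl replicate 3, only KDM3A was called in CDH11 KD. These fits also called fewer genes in all, 511 higher and 452 lower of 10019, and 458 and 424 of 10006. Without sh#1 replicate 1, or without sh#1 replicate 3, KDM4C passed as well (q = 0.0187 and 0.0256). Where groups of libraries are said below to overlap or not, the share of all genes that did so is not given.

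**Figure D1:**
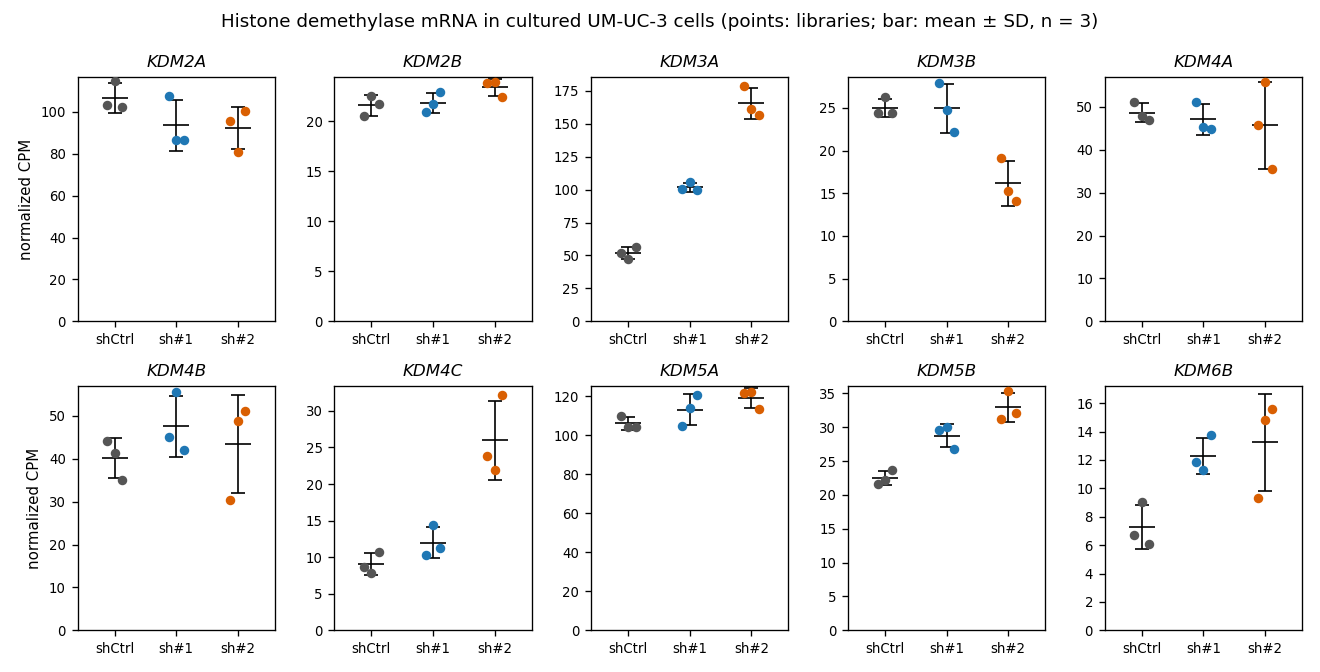
Normalized CPM (vertical axes, each from 0) of the 10 demethylases in each cultured library by group, with the mean and SD of 3 libraries. KDM3A stepped from 47.2 to 56.8 in shCtrl, through 99.3 to 105.6 in sh#1, to 156.3 to 178.7 in sh#2, whereas KDM2B, KDM4A and KDM4B overlapped between all groups.

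KDM3A was the member with the clearest change. It encodes an H3K9 demethylase that also acts as a coactivator of the androgen receptor, from a gene on chromosome 2 (hg38, 86440647 to 86492716, plus strand, ENSG00000115548) whose reference transcript has 26 exons. KDM3A was at 51.6, 47.2 and 56.8 normalized CPM in the shCtrl libraries, at 100.5, 105.6 and 99.3 in sh#1 and at 178.7, 161.5 and 156.3 in sh#2. The 3 groups did not overlap, and every sh#2 library lay above every sh#1 library. Raw counts behind these values were 115 to 149 in shCtrl and 243 to 383 in CDH11 KD. The log2 fold change was 1.36 (SE 0.22, q = 0.00162) in CDH11 KD, 0.97 (SE 0.10, q = 4.59e-11) with sh#1, a 1.96-fold rise, and 1.67 (SE 0.10, q = 4.48e-21) with sh#2, a 3.19-fold rise. The hairpins differed from each other by -0.70 (sh#1 against sh#2, SE 0.09, q = 9.6e-09, where 11.2% of genes were called higher in sh#1 and 13.5% lower). The call in CDH11 KD held in all 15 alternatives, with log2 fold changes from 1.26 to 1.43.

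Its paralog KDM3B did not follow. KDM3B (chromosome 5, 138352685 to 138437028, plus strand) removes the same H3K9 marks. It was at 24.4, 26.2 and 24.4 normalized CPM in shCtrl, 27.9, 24.8 and 22.2 in sh#1 and 19.1, 15.3 and 14.1 in sh#2. The sh#2 libraries lay below all others, whereas sh#1 and shCtrl overlapped. KDM3B fell by 0.62 on the log2 scale with sh#2 (SE 0.19, q = 0.00645), and it had a value of -0.01 with sh#1 (q = 0.979) and of -0.27 in CDH11 KD (95% interval -0.67 to 0.14, q = 0.363). It was higher in sh#1 than in sh#2 by 0.61 (SE 0.19, q = 0.0116), a call that was lost in 4 of 14 alternatives.

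Of the KDM4 genes followed here, KDM4C moved with sh#2. KDM4C (chromosome 9, 6720863 to 7175648, plus strand) removes methyl groups from trimethylated H3K9. Its normalized CPM was 8.66, 7.79 and 10.7 in shCtrl, 10.3, 14.3 and 11.3 in sh#1 and 23.8, 21.98 and 32.1 in sh#2, from 19 to 66 raw counts. The sh#2 libraries lay above all others, and sh#1 overlapped with shCtrl. KDM4C was higher by 1.51 on the log2 scale with sh#2 (SE 0.22, q = 1.32e-07), had a value of 0.39 with sh#1 (SE 0.25, q = 0.280), and sh#1 was lower than sh#2 by a log2 difference of -1.12 (SE 0.21, q = 3.92e-05). With both hairpins together the value was 1.03 (SE 0.36, q = 0.0626), which missed the threshold in the 2-group fit of edgeR. It passed in 4 of 15 alternatives, DESeq2 (q = 0.0223) and the averaged fit of 3 groups in edgeR (0.95, q = 0.000224) among them. That fit called 1630 genes higher in all, in place of 899.

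KDM4A and KDM4B, the other 2 KDM4 genes followed here, did not pass the test in any cultured comparison. KDM4A (chromosome 1, 43650149 to 43705518, plus strand) ranged from 46.9 to 51.2 normalized CPM in shCtrl, 44.7 to 51.3 in sh#1 and 35.5 to 55.9 in sh#2. In CDH11 KD its value was -0.07 on the log2 scale (95% interval -0.35 to 0.21, q = 0.764). KDM4B (chromosome 19, 4969113 to 5153598, plus strand) ranged from 35.1 to 44.1 in shCtrl, 41.9 to 55.6 in sh#1 and 30.3 to 51.1 in sh#2, with a value of 0.18 (95% interval -0.16 to 0.52, q = 0.481). KDM4A shares 2086 exon bases with a gene model on its own strand (ENSG00000284989) and 473 with the antisense gene KDM4A-AS1, and KDM4C shares 135 with a noncoding gene on its own strand (ENSG00000225489). On the opposite strand KDM2A shares 679 with a noncoding gene (ENSG00000287934), KDM2B 439 with RNF34 and 232 with KDM2B-DT, and KDM5A 48 with CCDC77. Whether strand was used in counting is not given in the sources used here, so reads of these pairs may not be told apart, and strand could not separate those on the same strand.

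Of the H3K4 demethylases among the members, KDM5B rose and KDM5A did not pass the test. KDM5B (chromosome 1, 202724495 to 202808487, minus strand) was at 21.6, 22.1 and 23.6 normalized CPM in shCtrl, 29.5, 30.0 and 26.8 in sh#1 and 31.3, 35.4 and 32.1 in sh#2. All 6 CDH11 KD libraries lay above the shCtrl libraries. The log2 fold change was 0.45 in CDH11 KD (SE 0.14, q = 0.0349), 0.35 with sh#1 (SE 0.16, q = 0.109) and 0.55 with sh#2 (SE 0.16, q = 0.00478), and the hairpins differed by -0.20 (q = 0.375). The call in CDH11 KD was lost in 9 of 15 alternatives, DESeq2 (q = 0.0735) and the fit without a low-count filter (q = 0.0535) among them. KDM5A (chromosome 12, 280057 to 389320, minus strand), first found as a partner of the retinoblastoma protein, ranged from 104.1 to 109.8 in shCtrl, 105.0 to 120.8 in sh#1 and 113.5 to 122.3 in sh#2. Its value in CDH11 KD was 0.13 (95% interval -0.06 to 0.32, q = 0.349).

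KDM6B, the H3K27 demethylase also known as JMJD3 (chromosome 17, 7834217 to 7854796, plus strand), rose with both hairpins from a low level. It was at 6.69, 9.02 and 6.10 normalized CPM in shCtrl, 11.9, 11.3 and 13.7 in sh#1 and 9.33, 14.8 and 15.6 in sh#2. The CDH11 KD libraries all lay above shCtrl, the nearest pair being 9.33 and 9.02, and the hairpins overlapped with each other. The log2 fold change was 0.81 in CDH11 KD (SE 0.24, q = 0.0239), 0.77 with sh#1 (SE 0.26, q = 0.0267) and 0.86 with sh#2 (SE 0.27, q = 0.00825). These rest on 16 to 39 counts per library, and the sh#1 call was lost in 4 of 14 alternatives, DESeq2 included (q = 0.133).

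KDM2A (chromosome 11, 67119263 to 67258082, plus strand) and KDM2B (chromosome 12, 121429096 to 121581023, minus strand), which bind unmethylated CpG islands through a CXXC zinc finger, did not pass the test in any cultured comparison. KDM2A ranged from 102.1 to 114.8 normalized CPM in shCtrl, 86.5 to 107.4 in sh#1 and 80.8 to 100.3 in sh#2. The sh#2 libraries lay below those of shCtrl, and the log2 fold change in CDH11 KD was -0.20 (95% interval -0.42 to 0.02, q = 0.208). KDM2B ranged from 20.5 to 22.6, 20.9 to 22.9 and 22.4 to 23.9 in these groups, with a value of 0.07 (95% interval -0.23 to 0.37, q = 0.788).

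**Figure D2:**
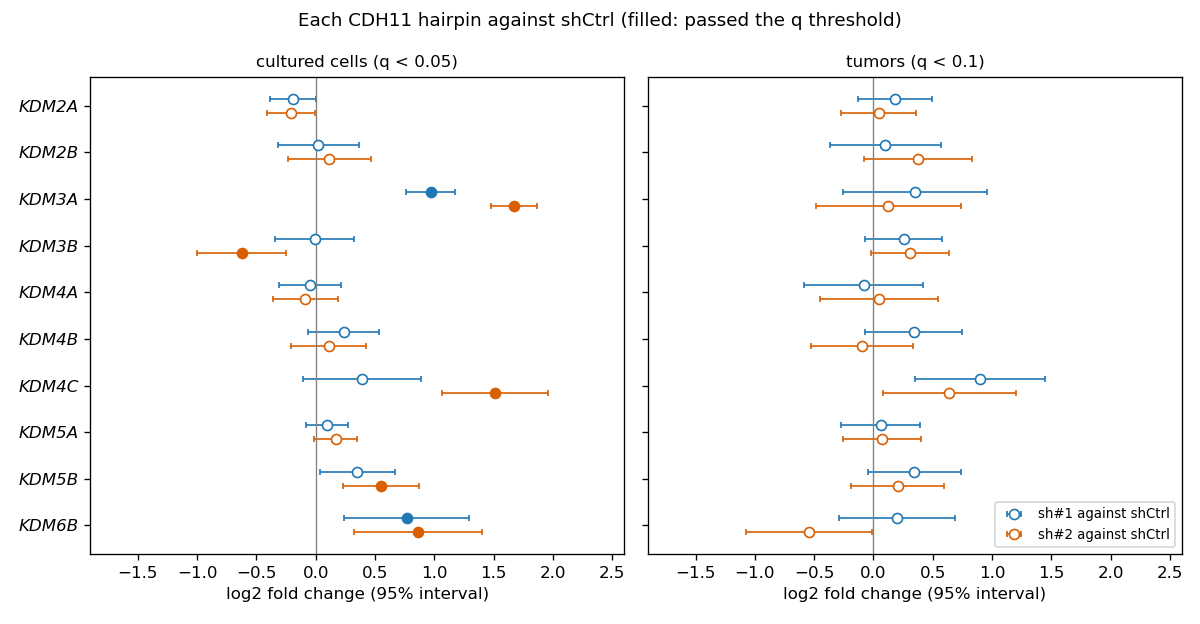
Log2 fold change of each demethylase with sh#1 and with sh#2 against shCtrl, with 95% intervals, in cultured cells (left) and tumors (right), where filled points passed the q threshold of 0.05 or 0.1. In culture 2 points are filled for sh#1 and 5 for sh#2, KDM3B alone among them to the left of 0, and in tumors none is filled.

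In the tumors, 0 of the 10 demethylases were called in CDH11 KD, with sh#1, with sh#2 or between the hairpins (edgeR q under 0.1 over 9184 genes), and DESeq2 also called 0 in each. Of all genes tested, 1.51%, 1.48%, 2.68% and 1.19% were called in either direction in these 4 comparisons. At an unadjusted p under 0.05 there was 1 member in CDH11 KD (KDM4C), 1 with sh#1 (KDM4C), 2 with sh#2 (KDM4C and KDM6B) and 2 between the hairpins (KDM4B and KDM6B). The shares above are at q under 0.1. The share of all genes at the unadjusted cutoff is not given here or for the lists below. In CDH11 KD the members' log2 fold changes ran from -0.13 to 0.77, with a median of 0.19 against 0.01 over all genes. The groups of tumors overlapped for every member, and the share of all genes for which they did is not given here.

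KDM4C came nearest to the threshold. It was at 13.6, 17.3, 11.4, 9.78 and 19.9 normalized CPM in the shCtrl tumors, 55.5, 21.5, 22.3, 17.4 and 28.3 in sh#1 and 19.9, 20.2, 26.8, 19.2 and 22.9 in sh#2. All 10 CDH11 KD tumors lay above the shCtrl mean, and the highest shCtrl tumor lay among them. The log2 fold change was 0.77 in CDH11 KD (SE 0.24, 95% interval 0.29 to 1.26, q = 0.132), 0.90 with sh#1 (q = 0.111) and 0.64 with sh#2 (q = 0.277). Sh#1 tumor 1 held the highest value, and without it the CDH11 KD value was 0.65 (q = 0.165) and the sh#1 value 0.68 (q = 0.302). KDM4C passed the threshold in CDH11 KD without shCtrl tumor 5 (0.88, q = 0.0616), and with sh#1 without shCtrl tumor 5 (q = 0.0527) or without sh#1 tumor 4 (q = 0.0636). These values rest on 10 to 28 counts per tumor. The mouse copy Kdm4c had at most 6 counts in any tumor.

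KDM3A, which separated the cultured groups, did not do so in the tumors. It was at 53.8, 41.1, 142.5, 62.3 and 91.9 normalized CPM in shCtrl, 144.3, 102.9, 83.8, 82.6 and 92.9 in sh#1 and 92.4, 96.7, 83.3, 58.7 and 91.7 in sh#2. The shCtrl tumors were more spread than those of sh#2, from the lowest value of all to nearly the highest. On the log2 scale the difference was 0.24 in CDH11 KD (SE 0.24, 95% interval -0.26 to 0.75, q = 0.733), 0.35 with sh#1 (q = 0.696) and 0.13 with sh#2 (q = 0.901). Without shCtrl tumor 3 the sh#1 value was 0.69 (q = 0.0655), past the threshold. The cultured and tumor tables were normalized separately, and their difference was not tested.

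KDM6B had values on both sides of 0 in the tumors. It was at 31.3, 34.6, 54.7, 28.5 and 53.6 normalized CPM in shCtrl, 80.5, 54.3, 39.2, 30.4 and 38.4 in sh#1 and 37.0, 18.8, 18.2, 34.1 and 28.6 in sh#2. On the log2 scale the difference was -0.13 in CDH11 KD (q = 0.890), 0.20 with sh#1 (q = 0.807) and -0.54 with sh#2 (SE 0.26, q = 0.347), and sh#1 stood above sh#2 by 0.74 (SE 0.26, q = 0.258). Without sh#1 tumor 1, its highest value, these were -0.24, 0.046, -0.54 and 0.59, with none called. Of the members, KDM6B had the largest share of its counts on the mouse gene. Kdm6b took 26.5% of the counts of both species in shCtrl, 28.9% in sh#1 and 41.1% in sh#2 tumors, and its part in the human values was not tested.

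**Figure D3:**
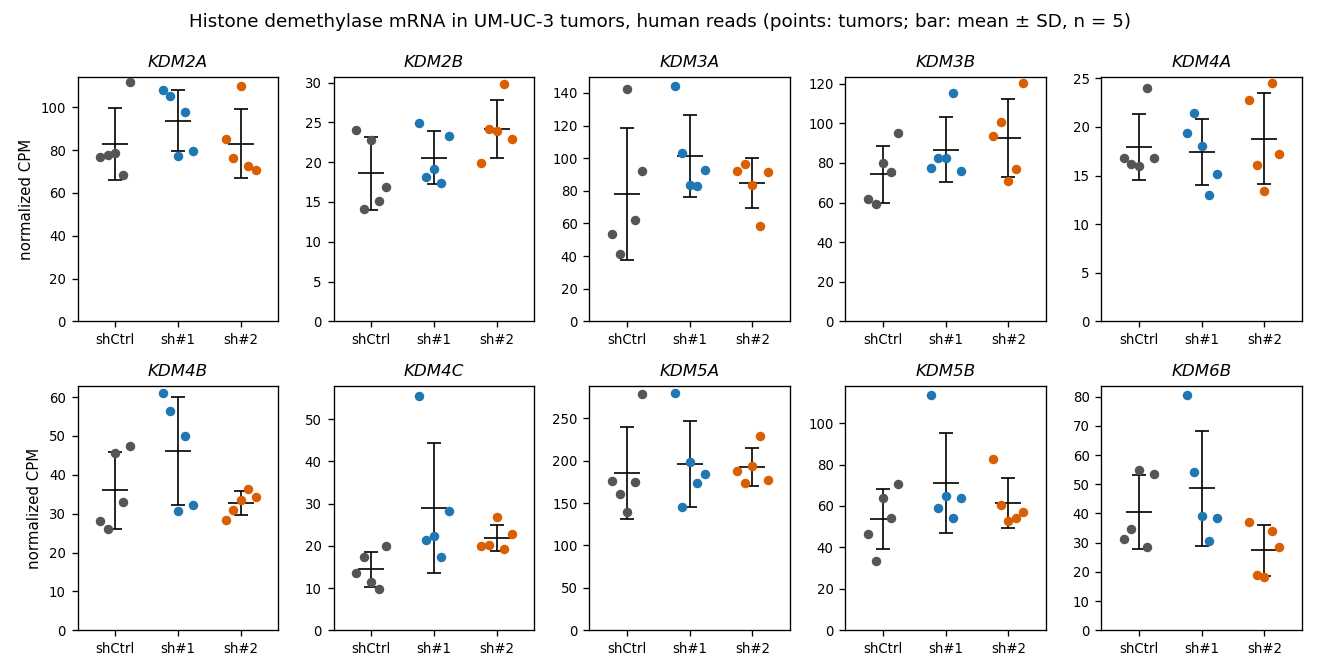
Normalized CPM (vertical axes, each from 0) of human reads of the 10 demethylases in each tumor by group, with the mean and SD of 5 tumors. The groups overlap in all panels, and sh#1 tumor 1, the leftmost sh#1 point, is the highest of all tumors for KDM3A, KDM4B, KDM4C, KDM5A, KDM5B and KDM6B.

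The remaining members had log2 fold changes in CDH11 KD tumors of 0.28 for KDM3B (95% interval -0.01 to 0.57, q = 0.408), 0.28 for KDM5B (q = 0.514), 0.24 for KDM2B (q = 0.645), 0.13 for KDM4B (q = 0.822), 0.11 for KDM2A (q = 0.790), 0.06 for KDM5A (q = 0.892) and -0.01 for KDM4A (q = 0.992). KDM3B, which fell with sh#2 in culture, ranged from 59.5 to 94.98 normalized CPM in shCtrl tumors, 75.8 to 115.3 in sh#1 and 70.9 to 120.3 in sh#2. KDM5B ranged from 33.5 to 70.5, 54.4 to 113.8 and 52.7 to 82.5, and 9 of 10 CDH11 KD tumors lay above its shCtrl mean. KDM5A had the most counts of the members, 93 to 219 per tumor, and KDM4A among the fewest, 7 to 27.

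Genes around the demethylases were taken from lists of related enzymes. Among the other JmjC genes, 3 of 15 tested were higher and 1 lower in CDH11 KD cultured cells. KDM7A, a demethylase of H3K9 and H3K27, rose by 1.49 (q = 0.0131), JMJD6, which hydroxylates lysines, by 1.09 (q = 0.00304) and JMJD1C, a relative of KDM3A, by 0.63 (q = 0.0348). RIOX1, a ribosomal oxygenase, fell by 1.48 on the log2 scale (q = 0.00116). Without shCtrl replicate 2, or without shCtrl replicate 3, 1 of these genes was higher and 1 lower. Over all genes, 514 of 10030 were higher and 460 lower without replicate 2, and 458 of 10006 and 424 without replicate 3. Neither of the 2 flavin-dependent demethylases, which need no 2-oxoglutarate, was called in CDH11 KD by edgeR or DESeq2 or had an unadjusted p under 0.05. In the fit by hairpin, KDM1A, named after its values were seen, was higher with sh#1 by 0.38 (q = 0.0364) and at -0.06 with sh#2 (q = 0.803), and the hairpins differed by 0.43 (q = 0.0190).

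Among the enzymes that write the marks, more were called lower than higher. Of 29 histone lysine methyltransferases tested in cultured CDH11 KD cells, 8 were lower and 1 higher, with a median log2 fold change of -0.32. The H3K4 methyltransferases SETD1B, SETD1A and KMT2D fell by 1.37 (q = 0.00038), 0.83 (q = 0.00833) and 0.94 (q = 0.0200), and NSD2, which dimethylates H3K36, by 0.35 (q = 0.0207). EZH2, the Polycomb enzyme that sets the mark KDM6B removes, was the 1 that rose, by 0.42 (q = 0.0323), and is named after its value was seen. The count depended on the fit, with 2 lower and 0 higher without shCtrl replicate 1, 3 lower and 0 higher without shCtrl replicate 3, 5 lower and 0 higher without shCtrl replicate 2, and 11 lower and 4 higher in the fit of 3 groups. Calls over all genes moved in the same direction. The main fit called 820 lower and 899 higher of 9859. The numbers were 452 and 511 of 10019 without shCtrl replicate 1, and 424 and 458 of 10006 without replicate 3. They were 460 and 514 of 10030 without replicate 2, and 1661 and 1630 of 9859 in the fit of 3 groups. Of 26 partner proteins of demethylase and Polycomb complexes, 3 were higher and 6 lower. RYBP rose by 1.03 (q = 3.84e-05), and EED (q = 0.000738), MORF4L1 (q = 0.00131) and USP7 (q = 0.00143) fell by 0.61, 0.48 and 0.61.

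Other oxygen- and 2-oxoglutarate-dependent enzymes included 5 higher and 2 lower genes of 27 tested in cultured CDH11 KD cells. EGLN1, the prolyl hydroxylase that marks HIF for degradation, rose by 1.26 (q = 0.000985), P4HA1, a collagen prolyl hydroxylase, by 1.17 (q = 0.00306) and ALKBH5, an RNA demethylase, by 0.48 (q = 0.00288), while ALKBH4 fell by 0.98 (q = 0.0081). Without shCtrl replicate 3, 4 were higher and 0 lower, where 458 of all 10006 genes were higher and 424 lower. Of 22 genes that make or use 2-oxoglutarate, succinate or fumarate, 0 were called in cultured CDH11 KD cells in edgeR, 2 had an unadjusted p under 0.05 and DESeq2 called 1, as did edgeR without sh#1 replicate 3. The hairpins apart gave more calls, with 4 higher and 0 lower with sh#1, 3 higher and 1 lower with sh#2, and between the hairpins 7 were higher in sh#1 and 2 were higher in sh#2. Of all genes tested, 11.8% were called higher and 10.6% lower with sh#1, and 19.5% and 18.8% with sh#2. Between the hairpins 11.2% were higher in sh#1 and 13.5% in sh#2, and in CDH11 KD 9.12% were higher and 8.32% lower. Averaging the hairpins in the model by hairpin called 4 higher, where 1630 of all 9859 genes were higher and 1661 lower. Of 19 hypoxia markers, 13 were higher and 0 lower, with a median of 1.38. ANKRD37 rose by 6.05 (q = 3.44e-11), HILPDA by 3.66 (q = 7.98e-12), ADM by 3.50 (q = 1.74e-12) and BHLHE40 by 3.37 (q = 1.08e-09). The summed level of the hypoxia markers was 5299 to 5853 CPM in shCtrl, 8306 to 8564 in sh#1 and 13283 to 13505 in sh#2 libraries, the order in which KDM3A stood. This sum weighs abundant genes most, such as NDRG1 at 1432 mean normalized CPM in sh#1 and 4352 in sh#2, and LDHA at 2050 and 3454. ANKRD37 was at 141.6 and 142.8, and HILPDA at 747.1 and 617.6. Between the hairpins 13 of the 19 markers were called higher in sh#2 and 2 in sh#1. The part of the markers in the KDM3A values was not tested.

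In CDH11 KD tumors, 6 of these 7 lists had 0 genes called by edgeR or DESeq2, and 9 of their 109 distinct tested genes had an unadjusted p under 0.05. No share of all genes at that unadjusted cutoff is given beside this count. The exception among the lists was the hypoxia markers, with CA12 at 1.17 (q = 0.0158) as the 1 gene called of 16 tested, and a median of 0.47. The median was 0.69 with sh#1, where 16 of 16 values were above 0, and 0.07 with sh#2, where 10 were. In CDH11 KD DESeq2 called 2, as did edgeR when tumor 3 of shCtrl, tumor 3 of sh#1, or tumor 2 or 4 of sh#2 was left out. Their summed level was 1322 to 2579 CPM in shCtrl, 1702 to 4293 in sh#1 and 1476 to 1907 in sh#2 tumors, so the groups overlapped as they did for KDM3A. The methyltransferases, mostly below 0 in culture, had a median of 0.06 over 28 tested genes, and 1 of them was called without shCtrl tumor 5.

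**Figure D4:**
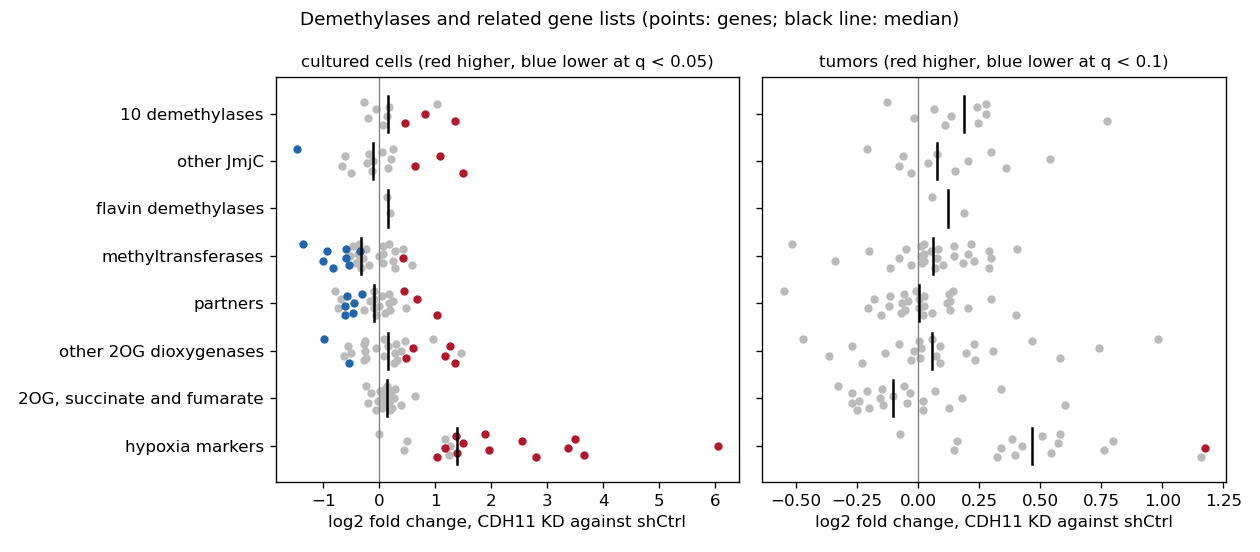
Log2 fold change in CDH11 KD against shCtrl (horizontal axes, on different scales) of the 10 demethylases and of 7 lists of related genes in cultured cells (left) and tumors (right), with each list's median as a black line. In culture the hypoxia markers lie to the right with a median of 1.38 and the methyltransferases to the left with a median of -0.32, and in tumors CA12 is the 1 colored point.

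Over the 9 cultured libraries and 8109 genes compared, the genes whose log2 CPM ran most like that of KDM3A were PLIN2, a lipid droplet protein (Pearson's r = 0.996), WSB1, a subunit of a ubiquitin ligase (0.994), LRRC75A (0.994), DDX50, an RNA helicase (0.991), and NGLY1, which removes sugar chains from glycoproteins (0.991). These correlations describe 3 groups of libraries that share their controls. In CDH11 KD cells the log2 fold changes were 2.17 for PLIN2, 0.94 for WSB1, 0.43 for LRRC75A, 1.20 for DDX50 and 1.98 for NGLY1. In the tumors the 4 of them that were tested had values of 0.67, 0.22, 0.09 and 0.16 for PLIN2, WSB1, DDX50 and NGLY1, with q values from 0.568 to 0.890.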

How the data were processed

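RNA-seq covered 9 libraries from UM-UC-3 cells in culture and 15 tumors. The authors deposited raw counts per gene, with a separate mouse table for the tumors. Reads of cultured cells were trimmed in CLC Genomics Workbench and mapped to hg38 with RaNAseq, and those of tumors were trimmed with trim galore and mapped to hg38 with HISAT2. The counting tool, annotation, use of strand and separation of species are not given in the sources used here. Some rows of the table of cultured cells were not analysed here.

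From these counts, edgeR 4.0.16 in R 4.3.3 (filterByExpr, TMM normalization, robust quasi-likelihood test, Benjamini-Hochberg adjustment) was fitted over all genes, in 2 groups for CDH11 KD against shCtrl and in 3 groups for each hairpin. Thresholds were q under 0.05 in culture and 0.1 in tumors. Normalized CPM are counts divided by TMM-scaled library sizes. Fold changes of low genes carry the prior count of edgeR. The fits were tested on simulated data in which well-counted genes changed strongly and alike with both hairpins. That test does not cover low counts, small changes or hairpins that differ. The results were recomputed with DESeq2 1.42.0, with normalization to the upper quartile, without a filter on low counts, with 10 or more counts required per library, with the replicate number as a block, leaving out each replicate, with the 3-group fit for CDH11 KD, and in tumors with the log2 ratio of mouse over human counts as covariate. Replicate pairs differed by more than sampling noise (chi-square per degree of freedom from 1.3 to 6.89), so each was kept. Gene locations came from GENCODE on hg38 and promoters from RefSeq. The members and lists were chosen with earlier results of these data known. All members are named, and of each list up to 4 genes called in CDH11 KD with the smallest q. EZH2 and KDM1A are named besides, after their values were seen. Like-pattern genes are the 5 with the highest correlation with the member of smallest q, among those averaging 20 counts or more.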

Additional observations from a re-analysis of the deposited data

Results flagged for a closer look

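Of 30 groups of 5 tumors, 10 members by 3 groups, 7 (23.3%) held 1 tumor far from the other 4 by Dixon's test, where chance gives about 1 in 20 for normally distributed values and 6.76% of such groups were past it over all 9184 genes tested. The members' groups share their tumors, and the difference between these shares was not tested. In shCtrl, KDM2A was at 111.8 normalized CPM in tumor 5, KDM5A at 278.8 in tumor 5 and KDM4A at 24.01 in tumor 4. In sh#1, KDM4C was at 55.49 and KDM5B at 113.8 in tumor 1, the tumor with the highest mouse share and the fewest human counts, and KDM3B was at 115.3 in tumor 4. In sh#2, KDM5B was at 82.46 in tumor 1. All 7 lay above the other tumors of their group.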

How the results depend on the processing

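The number of members called stayed within 1.5 times in 130 of 142 alternatives. Counts of 0 and 0, and of 3 and 2, pass this rule, and all 4 tumor comparisons had 0 in the main fit. The share therefore says little about how firm single calls are. Of 767 alternative values of single members, 722 kept their direction and their side of the threshold. Single values were checked for all 10 members in CDH11 KD. By hairpin they were checked only for KDM3A, KDM3B, KDM4C, KDM5B and KDM6B in culture and KDM3A, KDM4C and KDM6B in tumors. In culture the CDH11 KD count was 1 to 4 when 1 library was left out and the sh#1 count 1 to 2, with 1 in DESeq2. In tumors the CDH11 KD count was 1 (KDM4C) with at least 10 counts in every library and 0 to 1 with a tumor left out, the sh#1 count 0 to 1 with a tumor left out, and the count between hairpins 1 (KDM6B) without a low-count filter. The cause was not tested. Among the values checked, sign changes were found only near 0, none of them called. In culture, KDM3B with sh#1 was 0.0077 without a filter and -0.093 to 0.079 with a library left out, and KDM6B between hairpins was -0.30 to 0.038 with a library left out. In CDH11 KD tumors, KDM4A was 0.0090 under the replicate block and -0.088 to 0.12 with a tumor left out, KDM5A -0.0045 with the mouse covariate and -0.019 to 0.23 with a tumor left out, and KDM6B -0.24 to 0.018 with a tumor left out. KDM3A with sh#2 in tumors was -0.0059 with the covariate and -0.034 to 0.46 with a tumor left out. Same-numbered libraries of different groups correlated at -0.0051 to 0.055 in culture and -0.096 to 0.126 in tumors. Those with different numbers correlated at -0.056 to 0.044 and -0.192 to 0.187. These ranges overlapped, so no clear pairing by replicate number was seen, and a weak one was not tested. With the replicate block, 2 members were called in CDH11 KD culture in place of 3, and the other counts of members were unchanged. In that fit 5 methyltransferases were lower and 0 higher in place of 8 and 1. Over all genes, 598 were lower and 648 higher in place of 820 and 899. Counts of 7 to 39 per library limit KDM2B, KDM4A and KDM4C in tumors and KDM6B in culture. KDM6B in tumors held 14 to 48.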
